A study of Mus musculus with 9 samples.

Results

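Integrin subunits and laminin chains were followed as the genes whose symbols name an integrin alpha or beta subunit or a laminin alpha, beta or gamma chain. The symbols matched 37 of 35112 genes in the table, of which 26 were integrin and 11 were laminin genes. They comprised 18 integrin alpha, 8 integrin beta, 5 laminin alpha, 3 laminin beta and 3 laminin gamma genes. Polyadenylated brain RNA was sequenced from wild-type C57BL/6 mice in 3 groups of 3 separate animals. The groups were mice with intracerebral haemorrhage (ICH) that were given P7C3-A20, mice with ICH alone, and mice labelled sham with a control treatment. All brains were taken 72 hours after treatment. P7C3-A20 is an aminopropyl carbazole compound studied for protection of neurons. The sources used here do not give the brain region, age, dose, vehicle or the way the bleed was made.

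Integrins are alpha-beta pairs in the cell membrane that tie the matrix or a neighbouring cell to the actin cytoskeleton. The partner choice sets the ligand: beta2 pairs are carried by leukocytes and bind ICAMs and complement, alpha v pairs and alpha5 read the RGD letters of fibronectin or vitronectin, and alpha3, alpha6 and alpha7 bind laminin. Laminins are trimers of an alpha, a beta and a gamma chain and form the basement membrane of brain vessels, where endothelial cells, pericytes and astrocyte endfeet meet. Microglia carry alphaM and beta2 already in the uninjured brain.

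The libraries held 51537047 to 63324728 estimated counts, so that 3 counts in a library equalled 0.0455 to 0.0625 CPM, the count scaled to library size. On the first principal component of log2 expression, which took 40.7% of the variance, ICH+P7C3-A20 1, 2 and 3 lay at -34.5, 17.4 and 18.5, the ICH libraries at 71.8 to 80.5 and the sham libraries at -81.1 to -76.2. On this component ICH+P7C3-A20 1 thus stood apart from the other libraries of its group, towards sham. Summed neuron markers, which check the brain label, were 363 to 581 FPKM (fragment number scaled for transcript length and library size) in ICH+P7C3-A20, 289 to 306 FPKM in ICH and 429 to 473 FPKM in sham. The neuron marker Slc17a7 had 137 FPKM in ICH+P7C3-A20 1, 47.1 and 49.3 FPKM in ICH+P7C3-A20 2 and 3 and 8.51 to 46.0 FPKM in sham. Summed oligodendrocyte markers were 649 FPKM in ICH+P7C3-A20 1, 1578 and 1397 FPKM in ICH+P7C3-A20 2 and 3 and 1102 to 1440 FPKM in sham. In ICH they were 1624 to 2058 FPKM. Slc17a7 thus lay above the range of sham in all 3 ICH+P7C3-A20 libraries, and furthest in ICH+P7C3-A20 1. The oligodendrocyte sum lay below that range in ICH+P7C3-A20 1, above it in ICH+P7C3-A20 2 and within it in ICH+P7C3-A20 3. Choroid plexus markers, a sign of how each brain was cut, varied within every group: 45.0 to 1596 FPKM in ICH+P7C3-A20, 17.0 to 2361 FPKM in ICH and 11.8 to 402 FPKM in sham. Levels below are FPKM per library. Tests used edgeR's quasi-likelihood fit to the estimated counts of all 9 libraries, and a gene was called at a Benjamini-Hochberg adjusted p under 0.05 over 21900 tested genes. Log2 changes are given ± an error, taken as the change divided by the square root of the test's F statistic.

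None of the 37 genes was undetected across the 9 libraries, and all 37 entered the tests. Itgb6 was at 0 in every sham library. Of the 37, 16 had a mean under 1 FPKM in every group, so that much of the family was rare in whole brain tissue. In total edgeR called 21 genes in at least 1 comparison and 16 in none.

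The comparison of ICH with sham asked how the bleed altered brain transcripts. Integrin and laminin genes were mostly higher after the bleed: 20 of 37 were called higher, where 15.6% of all tested genes were and 26.0% were called in either direction. The higher genes were 16 of 26 integrins and 4 of 11 laminins. Of the members with counts in every group, Itgax, Itgb2, Itgal and Itgam had the largest changes. No member was called lower by edgeR, against 10.4% of all tested genes, although 2 (Itga9 and Lamb3) were lower at an unadjusted p under 0.05; DESeq2 called 1 (Lamb3) and limma 0. The median log2 change was 0.70 over the 37 genes and 0.00 over all tested genes. Every ICH library lay above every sham library for 21 members, where this held for 23.0% of tested genes, and below for 1 member (Lamb3), where it held for 14.3%. In bulk tissue, more cells of a type and more RNA per cell cannot be told apart.

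The comparison of ICH+P7C3-A20 with ICH asked how the agent altered the state of the bled brain. No member was called higher and 13 were called lower, where 2.69% and 6.05% of all tested genes were and 8.74% were called in either direction. The lower genes were 10 integrins and 3 laminins. At an unadjusted p under 0.05, 2 members were higher (Itga8 and Lama3) and 19 lower; DESeq2 called 0 higher and 18 lower, with Itga5, Itga7, Itgav, Itgb7 and Lama5 added, and limma 0 and 11. The median log2 change was -0.39 over the 37 genes and -0.01 over all tested genes. Every ICH+P7C3-A20 library lay below every ICH library for 19 members and above for 2, where this held for 16.4% and 10.7% of tested genes. The count of lower members was 8, 6 and 7 without ICH 1, 2 and 3, and 9 without ICH+P7C3-A20 1. ICH+P7C3-A20 1 was the lowest library of its group for 10 of the 13 lower genes and for 21 of all 37.

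Against sham, ICH+P7C3-A20 had 10 members called higher and 1 called lower (Itga9), where 4.58% and 0.744% of all tested genes were and 5.32% were called in either direction. The median log2 change was 0.56 over the 37 genes and 0.03 over all tested genes. Every ICH+P7C3-A20 library lay above every sham library for 16 members and below for 1, where this held for 10.7% and 5.39% of tested genes. The count of higher members was 6 without sham 1 and 6 without ICH+P7C3-A20 3, and limma called 3 (Itgb2, Itgb5 and Itgam). DESeq2 called 15, with Itga7, Itga8, Itgal, Itgb1 and Itgb7 added. This comparison and the other two share libraries, so their values stand side by side and are not independent.

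**Figure D1:**
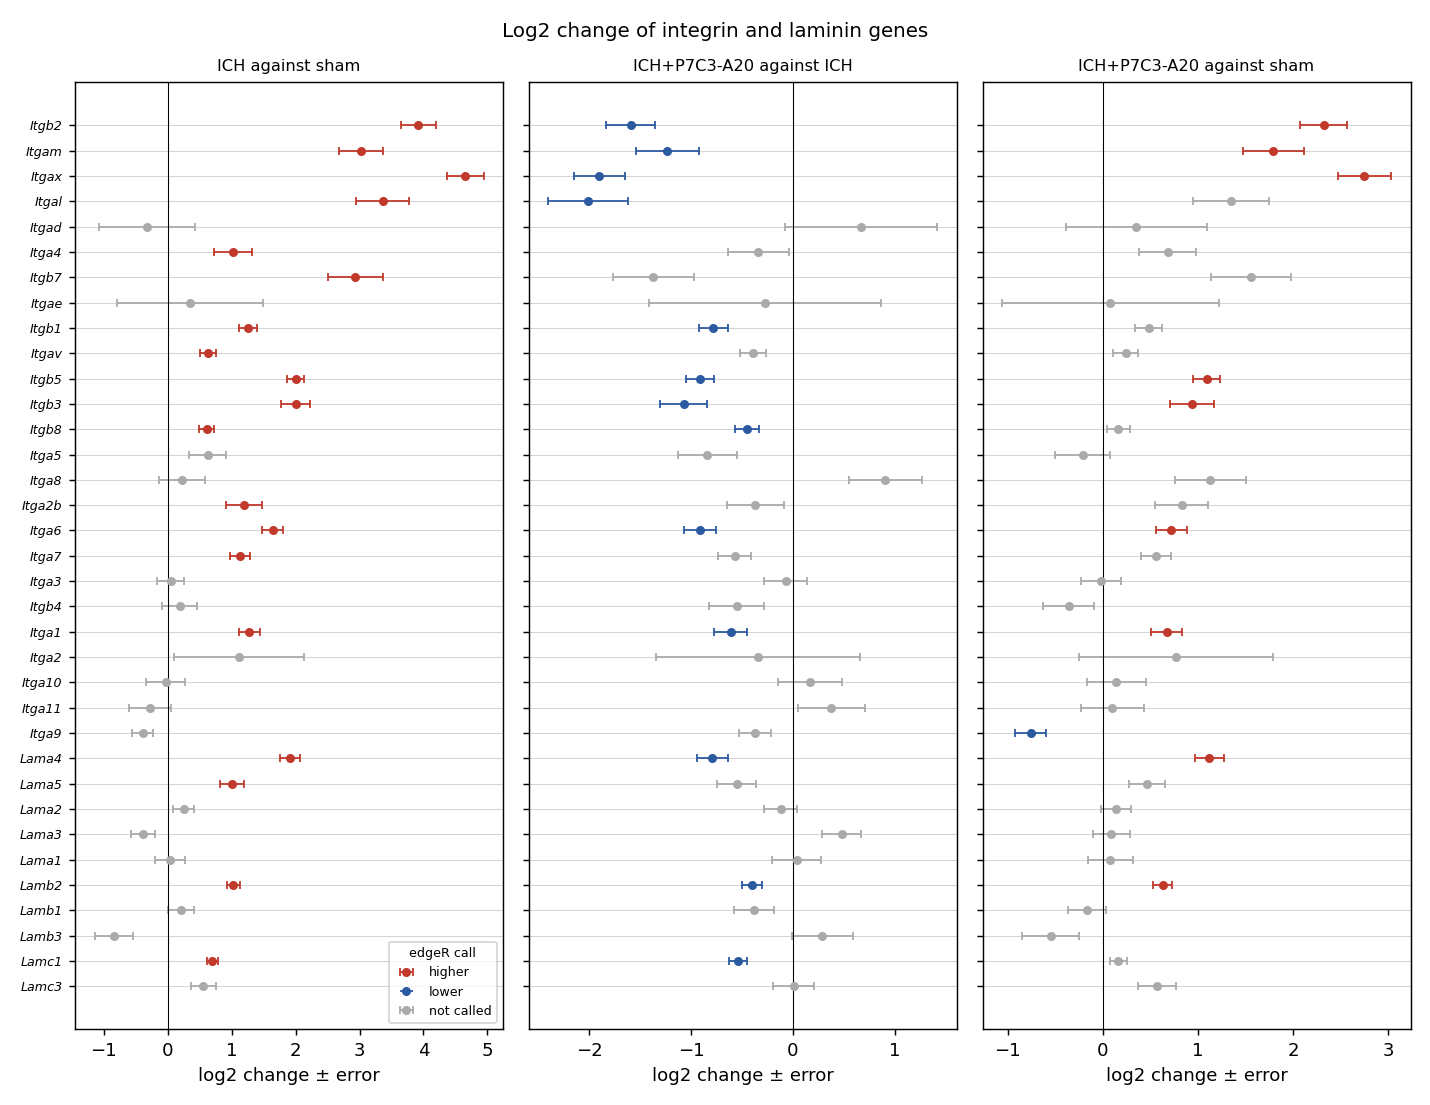
Log2 change (x axis, bars are ± the error) of 35 of the 37 integrin and laminin genes (rows) in 3 comparisons, coloured by edgeR's call. Itgb6, which was at 0 in every sham library, is among those left out. Red points fill the upper rows for ICH against sham, where 20 members including Itgb6 were called higher, and 13 blue points mark the members called lower in ICH+P7C3-A20 against ICH.

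Beta2 integrins belong to leukocytes and microglia. Beta2 (Itgb2, CD18) is the shared chain of the family, alphaM (Itgam, CD11b) pairs with it in microglia and myeloid cells, alphaX (Itgax, CD11c) in dendritic cells and activated microglia, and alphaL (Itgal, CD11a) on most leukocytes. Of 5 genes, 4 were called higher in ICH than in sham and 4 lower in ICH+P7C3-A20 than in ICH, and 3 were called higher in ICH+P7C3-A20 than in sham. The shares over all tested genes were 15.6%, 6.05% and 4.58%. The alpha genes lie together on the plus strand of mouse chromosome 7 (GRCm38): Itgam, Itgax and Itgad stand 11055 and 3718 bases apart, and Itgal lies 727501 bases before Itgam with 58 genes between. The table's coordinates are chr7:128062640-128118491 for Itgam and chr7:128129547-128150657 for Itgax.

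Since Itgam and Itgax are near neighbours that changed in the same directions, their promoters are shown beside that of Itgb5, a gene of chromosome 16 with the same calls. These 3 were chosen after their values were seen. Each is the 250 bases before the RefSeq start, GRCm38.p6, plus strand, at chr7:128062390-128062639 for Itgam, chr7:128129300-128129549 for Itgax and chr16:33829415-33829664 for Itgb5. Capitals mark GAGGAA, the purine-rich letters that the myeloid factor PU.1 can bind, and CACCC, a core of Sp and Kruppel-like factor sites, on either strand (TTCCTC and GGGTG). The 2 motifs may share 1 base and do not overlap here.
Itgam: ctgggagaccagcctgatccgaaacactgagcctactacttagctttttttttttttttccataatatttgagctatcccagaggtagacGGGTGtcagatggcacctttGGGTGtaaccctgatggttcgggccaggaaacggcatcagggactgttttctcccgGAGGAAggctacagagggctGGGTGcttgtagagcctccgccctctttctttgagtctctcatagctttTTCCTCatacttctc
Itgax: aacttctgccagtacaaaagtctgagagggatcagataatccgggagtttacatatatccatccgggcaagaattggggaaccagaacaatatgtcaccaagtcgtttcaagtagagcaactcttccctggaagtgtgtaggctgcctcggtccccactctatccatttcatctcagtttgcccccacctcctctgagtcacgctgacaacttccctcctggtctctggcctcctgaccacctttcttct
Itgb5: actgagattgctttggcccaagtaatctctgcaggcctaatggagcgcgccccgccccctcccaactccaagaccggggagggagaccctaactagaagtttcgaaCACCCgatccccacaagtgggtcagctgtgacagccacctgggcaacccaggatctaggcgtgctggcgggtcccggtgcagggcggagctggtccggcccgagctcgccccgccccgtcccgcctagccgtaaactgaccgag
Itgam held GAGGAA 2 times and CACCC 3 times, Itgax held neither, and Itgb5 held CACCC 1 time. Among 32851 RefSeq promoters of this length, 23.3% held GAGGAA and 52.0% held CACCC. Of the 37 genes, 23 matched the table by symbol, with 26 promoters, of which 13 (50.0%) held GAGGAA and 16 (61.5%) held CACCC. These matches describe letters only.

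Itgb2 had 3.83, 6.92 and 7.85 FPKM in ICH+P7C3-A20 1, 2 and 3, against 17.5, 21.9 and 18.3 FPKM in ICH 1, 2 and 3 and 0.924, 1.36 and 1.44 FPKM in sham 1, 2 and 3. The groups did not overlap, and ICH+P7C3-A20 1 was the lowest of its group. Its log2 change was 3.92 ± 0.27 in ICH against sham (15.1-fold, adjusted p = 7.67e-06), -1.59 ± 0.24 in ICH+P7C3-A20 against ICH (adjusted p = 0.00706) and 2.32 ± 0.25 in ICH+P7C3-A20 against sham (adjusted p = 7.42e-04).

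Itgam, the most abundant integrin alpha transcript in ICH, had 7.88, 12.5 and 16.1 FPKM in the ICH+P7C3-A20 libraries (1, 2 and 3, as throughout), 28.6, 33.0 and 26.5 FPKM in the ICH libraries and 4.09, 1.93 and 4.68 FPKM in the sham libraries. Again no groups overlapped, and ICH+P7C3-A20 1 was the lowest of its group. Its log2 change was 3.02 ± 0.34 in ICH against sham (8.09-fold, adjusted p = 1.48e-04), -1.23 ± 0.31 in ICH+P7C3-A20 against ICH (adjusted p = 0.0407) and 1.79 ± 0.32 in ICH+P7C3-A20 against sham (adjusted p = 0.0110). The call against ICH did not stand without sham 1 or 3 (adjusted p = 0.0511 and 0.0533), without ICH 1, 2 or 3 (0.110, 0.128 and 0.0840) or without ICH+P7C3-A20 1 or 2 (0.167 and 0.102).

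Itgax was far rarer, with 0.316, 0.407 and 0.343 FPKM in ICH+P7C3-A20, 1.20, 1.5 and 1.46 FPKM in ICH and 0.0345, 0.0511 and 0.0735 FPKM in sham. It had the largest change of any member with counts in every group: its log2 change was 4.65 ± 0.29 in ICH against sham (25.1-fold, adjusted p = 6.31e-06), -1.90 ± 0.25 in ICH+P7C3-A20 against ICH (adjusted p = 0.00634) and 2.75 ± 0.28 in ICH+P7C3-A20 against sham (adjusted p = 5.28e-04). In ICH+P7C3-A20 its 3 libraries lay close together and well between the other groups. By limma with a pseudocount of 1, the call against sham did not stand (adjusted p = 0.0913). It was also lost after quantile normalization (0.0724) and without a filter (0.163).

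Itgal averaged 0.202 ± 0.0882 FPKM in ICH+P7C3-A20, 0.861 ± 0.240 FPKM in ICH and 0.0818 ± 0.0142 FPKM in sham (SD, n = 3 each). It was called higher in ICH than in sham (log2 change 3.36 ± 0.42, adjusted p = 2.33e-04) and lower in ICH+P7C3-A20 than in ICH (-2.01 ± 0.39, adjusted p = 0.0139). Without ICH 2 the second of these calls did not stand (adjusted p = 0.0638). Itgad, the alphaD gene beside Itgax, did not share this pattern: it averaged 0.102 FPKM in ICH+P7C3-A20, 0.0614 FPKM in ICH and 0.0765 FPKM in sham and was called in no comparison. Its body overlaps the opposite-strand gene Cox6a2, and the sources used here do not give the strand setting of the counting.

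Summed over Itgal, Itgam, Itgax and Itgad, the beta2 partners reached 12.8 ± 4.17 FPKM in ICH+P7C3-A20, 31.7 ± 3.60 FPKM in ICH and 3.78 ± 1.49 FPKM in sham, beside 6.20 ± 2.10, 19.2 ± 2.39 and 1.24 ± 0.278 FPKM of Itgb2 in the same groups (SD, n = 3 each). Itgam made up 94.5%, 92.7% and 94.0% of the partners' FPKM in ICH+P7C3-A20, ICH and sham, and Itgax made up 2.96 ± 0.851%, 4.40 ± 0.605% and 1.58 ± 0.821% in the same groups (SD, n = 3 each).

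Of the cells that carry beta2 integrins, markers of monocytes, macrophages and microglia moved with these genes. Summed over 7 monocyte and macrophage markers, levels were 27.9 to 64.0 FPKM in ICH+P7C3-A20, 179 to 230 FPKM in ICH and 5.31 to 6.39 FPKM in sham. All 7 lay higher in every ICH library than in every sham library, all 7 lay lower in every ICH+P7C3-A20 library than in every ICH library, and 6 of 7 lay above sham in every ICH+P7C3-A20 library. Over all tested genes this held for 23.0%, 16.4% and 10.7%. The 7 microglia markers summed to 136 to 233 FPKM in ICH+P7C3-A20, 357 to 427 FPKM in ICH and 74.6 to 105 FPKM in sham, with all 7 above sham without overlap in both bled groups and 5 of 7 below ICH in ICH+P7C3-A20. Neutrophil markers summed to 1.45 to 2.91 FPKM in ICH+P7C3-A20, 3.05 to 7.61 FPKM in ICH and 0.0637 to 0.994 FPKM in sham, with Ly6g at 0 in every ICH and sham library and Cxcr2 at 0 in sham. These neutrophil sums did not overlap between groups either. Of the 4 tested, 3 were called higher in ICH than in sham and 0 lower in ICH+P7C3-A20 than in ICH, beside 15.6% and 6.05% of all tested genes. Without overlap, 3 of the 4 lay above sham in ICH and 1 lay below ICH in ICH+P7C3-A20. Dendritic cell markers summed to 1.12 to 1.86 FPKM in ICH+P7C3-A20, 1.58 to 1.86 FPKM in ICH and 1.01 to 1.51 FPKM in sham. None of the 4 dendritic cell markers tested was called in any comparison. The part of cell numbers in the beta2 changes was not tested.

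Alpha4 and beta7 integrins serve homing of lymphocytes and monocytes: alpha4 (Itga4) binds VCAM-1 with beta1 and MAdCAM-1 with beta7 (Itgb7), and alphaE (Itgae) pairs with beta7 to bind E-cadherin. Of these 3 genes, 2 were called higher in ICH than in sham, where 15.6% of all tested genes were. None was called in either other comparison by edgeR, with 1 (Itgb7) lower than ICH and 2 higher than sham at an unadjusted p under 0.05. Over all tested genes, 8.74% were called in either direction against ICH and 5.32% against sham, so that none of 3 genes is near those shares.

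Itga4 had 1.04, 0.797 and 0.769 FPKM in ICH+P7C3-A20, 1.01, 1.32 and 1.13 FPKM in ICH and 0.633, 0.666 and 0.328 FPKM in sham. ICH lay above sham in every library and overlapped with ICH+P7C3-A20. The log2 change in ICH against sham was 1.02 ± 0.30 (2.02-fold, adjusted p = 0.0305), a call that did not stand without ICH 1, 2 or 3 (adjusted p = 0.0520, 0.112 and 0.0554). In ICH+P7C3-A20 it was -0.34 ± 0.30 against ICH (adjusted p = 0.552) and 0.68 ± 0.30 against sham (adjusted p = 0.269).

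Itgb7 averaged 0.367 ± 0.0665 FPKM in ICH+P7C3-A20, 0.981 ± 0.404 FPKM in ICH and 0.126 ± 0.0541 FPKM in sham (SD, n = 3 each), and its log2 change in ICH against sham was 2.93 ± 0.43 (7.61-fold, adjusted p = 6.70e-04). The groups did not overlap, yet edgeR called neither the difference from ICH (-1.37 ± 0.40, adjusted p = 0.0591) nor that from sham (1.56 ± 0.42, adjusted p = 0.0609) in ICH+P7C3-A20. Itgae stayed between 0 and 0.147 FPKM in all 9 libraries. Of 9 lymphocyte markers, 3 (Cd3d, Cd8a and Nkg7) were at 0 in every sham library, 2 (Cd3d and Ms4a1) in every ICH+P7C3-A20 library and 1 (Klrb1c) in every ICH library. Their sum was 5.15 to 9.07 FPKM in ICH+P7C3-A20, 8.53 to 10.3 FPKM in ICH and 10.5 to 17.0 FPKM in sham. Cd4 carried nearly all of it: without Cd4 the other 8 markers summed to 0.194 to 0.329 FPKM in ICH+P7C3-A20, 0.210 to 1.23 FPKM in ICH and 0.0802 to 0.244 FPKM in sham. Of the 4 lymphocyte markers that were tested, Cd8a was called higher and Cd4 lower in ICH than in sham. The part of lymphocytes in the Itgb7 values was not tested.

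Beta1 (Itgb1) is the partner of most alpha subunits and is made by nearly every cell type. It had 13.5, 24.6 and 17.4 FPKM in ICH+P7C3-A20, 31.9, 28.3 and 37.2 FPKM in ICH and 11.2, 13.1 and 15.0 FPKM in sham. Every ICH library was above all others, while ICH+P7C3-A20 1 fell within the range of sham. Itgb1 had a log2 change of 1.26 ± 0.14 in ICH against sham (2.39-fold, adjusted p = 1.03e-04), -0.78 ± 0.14 in ICH+P7C3-A20 against ICH (adjusted p = 0.00984) and 0.48 ± 0.14 in ICH+P7C3-A20 against sham (adjusted p = 0.0766).

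Of 8 RGD-binding subunit genes, 6 were called higher in ICH than in sham (Itgav, Itgb3, Itgb5, Itgb6, Itgb8 and Itga2b), 3 lower in ICH+P7C3-A20 than in ICH (Itgb3, Itgb5 and Itgb8) and 3 higher in ICH+P7C3-A20 than in sham (Itgb3, Itgb5 and Itgb6). Over all tested genes 15.6%, 6.05% and 4.58% were so called. Beta5 (Itgb5) joins alpha v as a vitronectin receptor and is prominent in microglia. It had 12.9, 20.4 and 18.3 FPKM in ICH+P7C3-A20, 33.9, 31.8 and 34.5 FPKM in ICH and 7.09, 7.11 and 10.2 FPKM in sham. No groups overlapped, and the ICH libraries were close together. Itgb5 had a log2 change of 2.0 ± 0.14 in ICH against sham (4.01-fold, adjusted p = 7.93e-06), -0.91 ± 0.14 in ICH+P7C3-A20 against ICH (adjusted p = 0.00684) and 1.09 ± 0.14 in ICH+P7C3-A20 against sham (adjusted p = 0.00140).

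Beta3 (Itgb3), the partner of alpha v on activated vessels and of alphaIIb on platelets, was rarer. It had 0.424, 0.863 and 0.703 FPKM in ICH+P7C3-A20, 1.43, 1.39 and 1.46 FPKM in ICH and 0.284, 0.371 and 0.375 FPKM in sham. The ICH libraries lay close together and above all others, and sham below all others. Itgb3 had a log2 change of 2.0 ± 0.23 in ICH against sham (4.0-fold, adjusted p = 1.51e-04), -1.07 ± 0.23 in ICH+P7C3-A20 against ICH (adjusted p = 0.0191) and 0.94 ± 0.23 in ICH+P7C3-A20 against sham (adjusted p = 0.0421). The call against ICH did not stand without ICH 1, 2 or 3 (adjusted p = 0.0708, 0.0745 and 0.0603). The call against sham did not stand without sham 1, 2 or 3 (adjusted p = 0.143, 0.0644 and 0.0745), without ICH 1, 2 or 3 (0.0826, 0.0737 and 0.0761) or without ICH+P7C3-A20 2 or 3 (0.131 and 0.161).

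Alpha v (Itgav) pairs with beta3, beta5, beta6 and beta8. It had 5.26, 6.07 and 5.06 FPKM in ICH+P7C3-A20, 7.50, 6.77 and 8.07 FPKM in ICH and 3.91, 3.91 and 6.24 FPKM in sham. ICH was above both other groups in every library, while ICH+P7C3-A20 overlapped with sham through sham 3. Itgav had a log2 change of 0.63 ± 0.13 in ICH against sham (1.55-fold, adjusted p = 0.00438), and the differences of ICH+P7C3-A20 from ICH (-0.39 ± 0.13, adjusted p = 0.0838) and from sham (0.24 ± 0.13, adjusted p = 0.359) were not called.

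Beta8 (Itgb8), with which alpha v frees active TGF-beta in brain, had 4.98, 6.04 and 4.85 FPKM in ICH+P7C3-A20, 7.03, 7.07 and 8.33 FPKM in ICH and 4.86, 5.04 and 4.20 FPKM in sham. ICH lay above all others, and ICH+P7C3-A20 1 and 3 lay within the range of sham. Itgb8 had a log2 change of 0.61 ± 0.12 in ICH against sham (1.52-fold, adjusted p = 0.00381), -0.45 ± 0.12 in ICH+P7C3-A20 against ICH (adjusted p = 0.0432) and 0.16 ± 0.12 in ICH+P7C3-A20 against sham (adjusted p = 0.554). The call against ICH did not stand without sham 1 (adjusted p = 0.0553), without ICH 1, 2 or 3 (0.101, 0.134 and 0.141) or without ICH+P7C3-A20 1, 2 or 3 (0.107, 0.0752 and 0.108).

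Beta6 (Itgb6), an epithelial partner of alpha v, was near the limit of detection. It had 4, 32 and 42 estimated counts in ICH+P7C3-A20 1, 2 and 3, 6, 25 and 38 in ICH 1, 2 and 3 and none in sham. With a floor of 3 counts over the sham group, its counts summed over the group were at least 27.8-fold higher in ICH+P7C3-A20 than in sham (adjusted p = 0.0335). They were at least 23.6-fold higher in ICH than in sham (adjusted p = 0.0109). These bounds are for the groups and not for each library. ICH+P7C3-A20 and ICH overlapped, and their difference was not called (adjusted p = 0.933). The call of ICH+P7C3-A20 against sham did not stand without sham 1, 2 or 3 (adjusted p = 0.0859, 0.0696 and 0.0563), without ICH 2 or 3 (0.0637 and 0.0578) or without ICH+P7C3-A20 2 or 3 (0.0719 and 0.107).

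AlphaIIb (Itga2b), the platelet partner of beta3, averaged 0.384 ± 0.107 FPKM in ICH+P7C3-A20, 0.509 ± 0.116 FPKM in ICH and 0.212 ± 0.0488 FPKM in sham (SD, n = 3 each). It was called higher in ICH than in sham (log2 change 1.20 ± 0.28, adjusted p = 0.0102) but not in ICH+P7C3-A20 against ICH (-0.37 ± 0.28, adjusted p = 0.474) or against sham (0.83 ± 0.28, adjusted p = 0.137). Of 7 platelet markers, Gp6 was at 0 in every ICH+P7C3-A20 and ICH library and Treml1 in every sham library. Their sum was 1.98 to 4.08 FPKM in ICH+P7C3-A20, 7.61 to 8.78 FPKM in ICH and 1.02 to 1.59 FPKM in sham, with Pf4 the largest part in ICH. Without Pf4 the other 6 summed to 1.21 to 1.77 FPKM in ICH+P7C3-A20, 1.20 to 1.71 FPKM in ICH and 0.645 to 0.991 FPKM in sham. The part of platelets in the Itga2b and Itgb3 values was not tested.

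Alpha5 (Itga5), the fibronectin receptor of vessels, and alpha8 (Itga8) were called in no comparison by edgeR, while DESeq2 called Itga5 lower in ICH+P7C3-A20 than in ICH and Itga8 higher in ICH+P7C3-A20 than in sham. Itga5 averaged 4.08 ± 1.51 FPKM in ICH+P7C3-A20, 7.53 ± 1.41 FPKM in ICH and 4.78 ± 2.39 FPKM in sham. Sham 3, at 7.54 FPKM, lay within the range of ICH. Itga8 ranged from 0.473 to 1.0 FPKM in ICH+P7C3-A20, from 0.339 to 0.425 FPKM in ICH and from 0.204 to 0.480 FPKM in sham, which made it 1 of 2 members with every ICH+P7C3-A20 library above every ICH library. Its log2 change there was 0.91 ± 0.36 (adjusted p = 0.151).

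**Figure D2:**
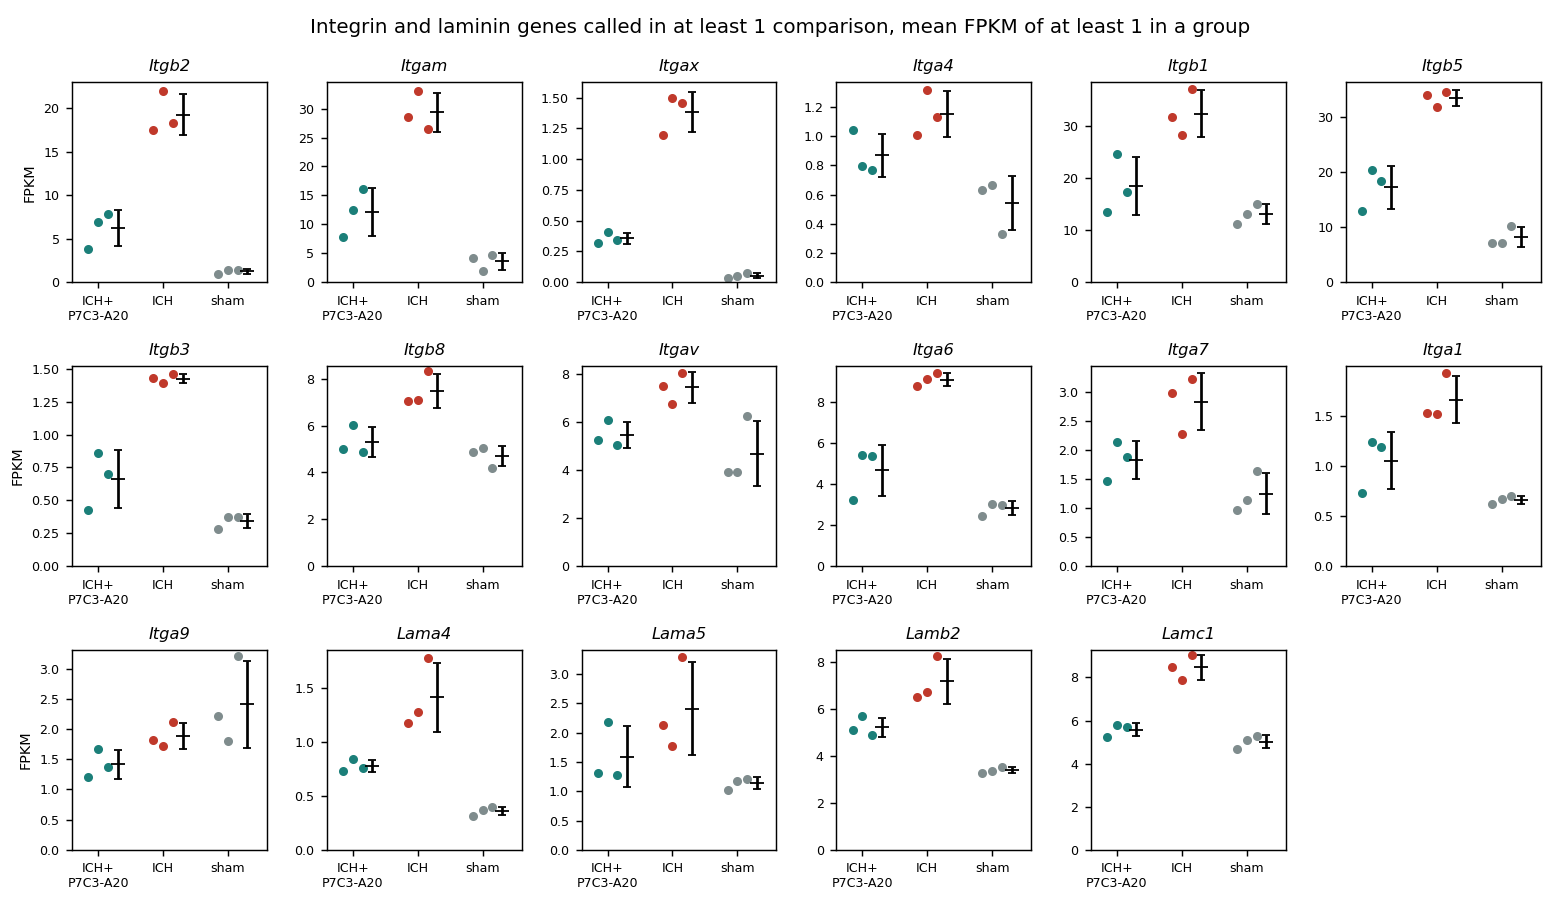
FPKM (y axis, from 0, scaled per gene) of the 17 genes called in at least 1 comparison with a mean of at least 1 FPKM in a group, by library (points) with the group mean ± SD (black bars, n = 3). For 16 of the 17 the ICH points lie above the sham points without overlap; Itga9 is the exception.

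Among the laminin-binding integrins, 2 of 4 genes were called higher in ICH than in sham, and 1 (Itga6) was called lower in ICH+P7C3-A20 than in ICH and higher than in sham. The same calls were made for 15.6%, 6.05% and 4.58% of all tested genes. Alpha6 (Itga6), a laminin receptor of brain endothelium, had 3.21, 5.40 and 5.36 FPKM in ICH+P7C3-A20, 8.75, 9.08 and 9.37 FPKM in ICH and 2.44, 3.01 and 2.99 FPKM in sham. The groups were apart, although ICH+P7C3-A20 1 lay close to sham. Itga6 had a log2 change of 1.64 ± 0.16 in ICH against sham (3.11-fold, adjusted p = 5.44e-05), -0.91 ± 0.16 in ICH+P7C3-A20 against ICH (adjusted p = 0.00958) and 0.72 ± 0.16 in ICH+P7C3-A20 against sham (adjusted p = 0.0264). The call against sham did not stand without sham 1 or 3 (adjusted p = 0.109 and 0.0551), without ICH 1 (0.0514) or without ICH+P7C3-A20 2 or 3 (0.0725 and 0.105).

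Alpha7 (Itga7), a laminin receptor of vascular smooth muscle and pericytes, had 1.47, 2.13 and 1.87 FPKM in ICH+P7C3-A20, 2.98, 2.28 and 3.23 FPKM in ICH and 0.964, 1.14 and 1.64 FPKM in sham. ICH lay above both other groups, which overlapped each other. Itga7 had a log2 change of 1.13 ± 0.16 in ICH against sham (2.19-fold, adjusted p = 6.32e-04), while ICH+P7C3-A20 was not called against ICH (-0.57 ± 0.16, adjusted p = 0.0544) or against sham (0.56 ± 0.16, adjusted p = 0.0828).

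Alpha3 (Itga3) and beta4 (Itgb4), the partner of alpha6 in epithelia and some arterioles, were called in no comparison. Itga3 averaged 2.99 ± 0.0891 FPKM in ICH+P7C3-A20, 3.27 ± 0.358 FPKM in ICH and 3.01 ± 0.762 FPKM in sham, and Itgb4 averaged 2.15 ± 0.939, 3.23 ± 0.329 and 2.72 ± 0.418 FPKM in the same order of groups (SD, n = 3 each). The ICH log2 changes against sham were 0.05 ± 0.21 for Itga3 and 0.19 ± 0.27 for Itgb4, small beside that of Itga6.

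Alpha1 (Itga1), a collagen receptor that also binds laminin and sits on capillary endothelium and smooth muscle, was the collagen-binding gene of 4 that was called. It had 0.725, 1.24 and 1.19 FPKM in ICH+P7C3-A20, 1.53, 1.52 and 1.93 FPKM in ICH and 0.617, 0.664 and 0.696 FPKM in sham, with no overlap between groups. Itga1 had a log2 change of 1.28 ± 0.16 in ICH against sham (2.42-fold, adjusted p = 2.39e-04), -0.61 ± 0.16 in ICH+P7C3-A20 against ICH (adjusted p = 0.0402) and 0.67 ± 0.16 in ICH+P7C3-A20 against sham (adjusted p = 0.0370). The call against ICH did not stand without sham 1 or 2 (adjusted p = 0.0577 and 0.0525), without ICH 1, 2 or 3 (0.0928, 0.112 and 0.142) or without ICH+P7C3-A20 1 or 2 (0.0898 and 0.0626). The call against sham did not stand without sham 1, 2 or 3 (adjusted p = 0.118, 0.0747 and 0.0702), without ICH 1, 2 or 3 (0.0645, 0.0616 and 0.0603) or without ICH+P7C3-A20 2 or 3 (0.101 and 0.149). The gene Pelo lies within Itga1 on the same strand, at 3.30, 4.29 and 3.65 FPKM on average in ICH+P7C3-A20, ICH and sham, so reads of the pair could be split. The collagen receptors Itga2, Itga10 and Itga11 lay between 0 and 1.16 FPKM in all libraries.

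Alpha9 (Itga9), a receptor for tenascin-C and osteopontin, was the member called lower than sham. It had 1.20, 1.67 and 1.38 FPKM in ICH+P7C3-A20, 1.82, 1.72 and 2.12 FPKM in ICH and 2.22, 1.80 and 3.21 FPKM in sham. ICH+P7C3-A20 lay below both other groups in every library, while ICH and sham overlapped. Itga9 had a log2 change of -0.76 ± 0.16 in ICH+P7C3-A20 against sham (1.69-fold lower, adjusted p = 0.0206), -0.37 ± 0.16 in ICH+P7C3-A20 against ICH (adjusted p = 0.186) and -0.39 ± 0.16 in ICH against sham (adjusted p = 0.0968). The call did not stand without sham 1 (adjusted p = 0.0617) or without ICH+P7C3-A20 2 or 3 (0.0551 and 0.0740). The opposite-strand genes Gm10157 and Gm2415 overlap Itga9 and averaged 6.97 and 7.16 FPKM in ICH+P7C3-A20, 7.96 and 5.39 FPKM in ICH and 9.78 and 7.89 FPKM in sham, above Itga9 itself. The sources used here do not say whether reads of the 2 strands were kept apart.

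The laminin chains that were called are among those known from vascular basement membrane. Lamb1 and Lama2 were called in no comparison by edgeR. Their log2 changes in ICH against sham were 0.21 ± 0.20 and 0.25 ± 0.16 (adjusted p = 0.507 and 0.284). In ICH against sham, 4 of 11 were called higher (Lama4, Lama5, Lamb2 and Lamc1), in ICH+P7C3-A20 against ICH 3 were called lower (Lama4, Lamb2 and Lamc1), and in ICH+P7C3-A20 against sham 2 were called higher (Lama4 and Lamb2). The shares over all tested genes were 15.6%, 6.05% and 4.58% in the same order. The median log2 change over the 11 genes was 0.25 in ICH against sham, -0.12 in ICH+P7C3-A20 against ICH and 0.16 in ICH+P7C3-A20 against sham. Over all tested genes the medians were 0.00, -0.01 and 0.03.

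The alpha4 chain (Lama4), made by endothelium throughout the vascular tree, had 0.735, 0.844 and 0.756 FPKM in ICH+P7C3-A20, 1.18, 1.28 and 1.78 FPKM in ICH and 0.317, 0.370 and 0.393 FPKM in sham. All groups were apart, and the ICH+P7C3-A20 libraries lay close together. Lama4 had a log2 change of 1.91 ± 0.16 in ICH against sham (3.75-fold, adjusted p = 1.64e-05), -0.79 ± 0.15 in ICH+P7C3-A20 against ICH (adjusted p = 0.0127) and 1.12 ± 0.15 in ICH+P7C3-A20 against sham (adjusted p = 0.00236). The call against ICH did not stand without ICH 2 or 3 (adjusted p = 0.0514 and 0.0612).

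The alpha5 chain (Lama5), which endothelium deposits chiefly in capillaries and arterioles, had 1.31, 2.19 and 1.27 FPKM in ICH+P7C3-A20, 2.14, 1.78 and 3.30 FPKM in ICH and 1.02, 1.18 and 1.21 FPKM in sham. Both bled groups lay above sham in every library and overlapped each other. Lama5 had a log2 change of 1.01 ± 0.19 in ICH against sham (2.02-fold, adjusted p = 0.00331), -0.55 ± 0.19 in ICH+P7C3-A20 against ICH (adjusted p = 0.105) and 0.46 ± 0.19 in ICH+P7C3-A20 against sham (adjusted p = 0.231).

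The beta2 chain (Lamb2), the main beta chain of mature vessels, had 5.10, 5.68 and 4.89 FPKM in ICH+P7C3-A20, 6.52, 6.74 and 8.26 FPKM in ICH and 3.26, 3.37 and 3.51 FPKM in sham. No groups overlapped, and sham varied least. Lamb2 had a log2 change of 1.03 ± 0.10 in ICH against sham (2.04-fold, adjusted p = 4.32e-05), -0.40 ± 0.10 in ICH+P7C3-A20 against ICH (adjusted p = 0.0331) and 0.63 ± 0.10 in ICH+P7C3-A20 against sham (adjusted p = 0.00443). The call against ICH did not stand without ICH 1, 2 or 3 (adjusted p = 0.0603, 0.113 and 0.135) or without ICH+P7C3-A20 1, 2 or 3 (0.0624, 0.0769 and 0.0811).

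The gamma1 chain (Lamc1), part of nearly all vascular laminins, had 5.25, 5.81 and 5.69 FPKM in ICH+P7C3-A20, 8.48, 7.87 and 9.05 FPKM in ICH and 4.67, 5.11 and 5.27 FPKM in sham. ICH stood above all others, and ICH+P7C3-A20 overlapped with sham. Lamc1 had a log2 change of 0.70 ± 0.09 in ICH against sham (1.63-fold, adjusted p = 3.07e-04), -0.54 ± 0.09 in ICH+P7C3-A20 against ICH (adjusted p = 0.00852) and 0.16 ± 0.09 in ICH+P7C3-A20 against sham (adjusted p = 0.400).

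The other 7 chains were called in no comparison by edgeR, while DESeq2 called Lamc3 higher and Lamb3 lower in ICH than in sham. Lama1 and Lama2, made in brain by meningeal cells and by astrocytes and pericytes, stayed between 0.303 and 0.985 FPKM in all libraries, and their log2 changes in ICH against sham were 0.04 ± 0.24 and 0.25 ± 0.16. Lamb3 averaged 0.258 ± 0.103 FPKM in ICH+P7C3-A20, 0.216 ± 0.0734 FPKM in ICH and 0.373 ± 0.0644 FPKM in sham (SD, n = 3 each). It was the member with every ICH library below every sham library (log2 change -0.84 ± 0.30, adjusted p = 0.0652), and it overlaps the opposite-strand genes G0s2 and Hsd11b1, both at higher FPKM.

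The cells of the vessel wall, which carry Itga1, Itga6 and Itga7 and make laminins, were followed by their markers. The 8 endothelial markers summed to 32.0 to 53.6 FPKM in ICH+P7C3-A20, 68.9 to 87.6 FPKM in ICH and 22.1 to 35.3 FPKM in sham; all 8 lay above sham without overlap in ICH, and 4 of 8 lay below ICH without overlap in ICH+P7C3-A20. The 7 pericyte and smooth muscle markers summed to 38.8 to 60.6 FPKM in ICH+P7C3-A20, 80.2 to 89.3 FPKM in ICH and 31.7 to 36.8 FPKM in sham, with 5 of 7 above sham in ICH and 5 of 7 below ICH in ICH+P7C3-A20. Tagln had 4.56 to 14.0 FPKM in ICH+P7C3-A20, 28.2 to 36.8 FPKM in ICH and 2.89 to 4.51 FPKM in sham. Myh11 did not rise, with 0.751 to 0.935 FPKM in ICH and 0.766 to 1.20 FPKM in sham. The 5 fibroblast markers summed to 11.7 to 13.8 FPKM in ICH+P7C3-A20, 14.6 to 17.6 FPKM in ICH and 6.80 to 9.28 FPKM in sham, with all 5 above sham in ICH and 1 of 5 below ICH in ICH+P7C3-A20. Without Pdgfra, the largest part, the other 4 summed to 6.00 to 8.47 FPKM in ICH+P7C3-A20, 7.94 to 10.9 FPKM in ICH and 1.95 to 4.75 FPKM in sham. ICH+P7C3-A20 and ICH then overlapped. The 6 astrocyte markers summed to 538 to 721 FPKM in ICH+P7C3-A20, 959 to 1056 FPKM in ICH and 341 to 383 FPKM in sham, of which Gfap was the largest part in ICH. Without Gfap the other 5 summed to 389 to 451 FPKM in ICH+P7C3-A20, 358 to 401 FPKM in ICH and 313 to 364 FPKM in sham. Of the 6, 4 lay above sham without overlap in ICH, while against ICH in ICH+P7C3-A20 2 were called lower (Aqp4 and Gfap) and 1 higher (Slc1a2). In ICH+P7C3-A20 against ICH, edgeR called lower 3 of the 8 endothelial, 1 of the 7 pericyte and smooth muscle (Tagln) and 0 of the 5 fibroblast markers. Over all tested genes, 6.05% were called lower there. Every ICH library lay above every sham library for 23.0% of tested genes, and every ICH+P7C3-A20 library below every ICH library for 16.4%. None of these markers was at 0 throughout a group, and their part in the laminin and integrin values was not tested.

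The make-up of each family by FPKM also differed between the groups, given here as a description. Itgb2 took 12.2 ± 2.54% of integrin beta FPKM in ICH+P7C3-A20, 19.6 ± 3.02% in ICH and 4.06 ± 0.540% in sham, and Itgb1 took 36.5 ± 3.09%, 33.0 ± 3.06% and 43.1 ± 1.10% in the same groups (SD, n = 3 each). Itgb5 took a like share in both bled groups, 34.3 ± 1.26% in ICH+P7C3-A20 and 34.0 ± 1.14% in ICH, against 26.6 ± 3.22% in sham. Itgam took 31.8 ± 5.81% of integrin alpha FPKM in ICH+P7C3-A20, 42.8 ± 4.51% in ICH and 13.7 ± 4.51% in sham. Among laminin chains, Lama4 took 19.2 ± 2.67% of alpha chain FPKM in ICH+P7C3-A20, 25.6 ± 1.77% in ICH and 11.5 ± 1.08% in sham, and Lamb2 took 69.8 ± 5.39% of beta chain FPKM in ICH+P7C3-A20, 70.9 ± 2.15% in ICH and 56.2 ± 5.84% in sham. The summed integrin beta genes reached 50.4 ± 12.7 FPKM in ICH+P7C3-A20, 98.3 ± 4.71 FPKM in ICH and 30.4 ± 3.63 FPKM in sham, and the summed laminin alpha and beta chains 11.7 ± 2.15, 15.7 ± 2.77 and 9.20 ± 1.05 FPKM in the same groups.

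**Figure D3:**
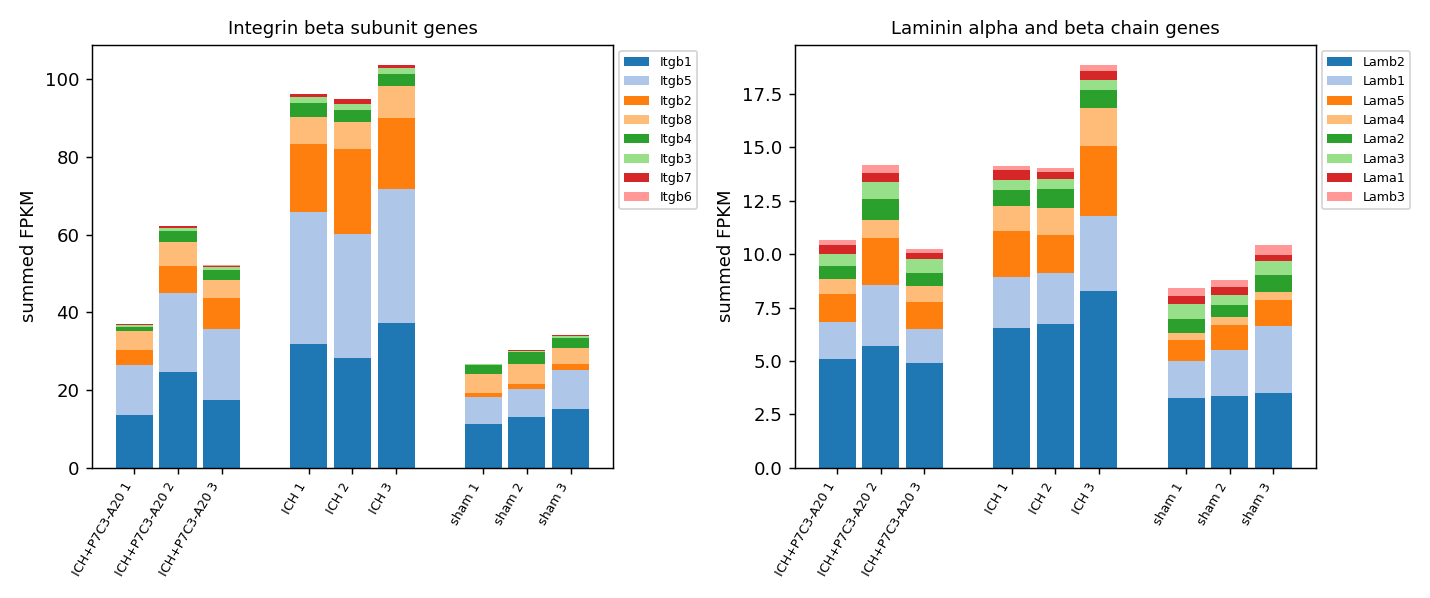
Summed FPKM (y axis, from 0) of the 8 integrin beta genes (left) and the 8 laminin alpha and beta genes (right) in each library, stacked by gene. The 3 ICH bars stand above all others on the left, with a wider Itgb2 band, and the ICH+P7C3-A20 bars stand between ICH and sham there; on the right the bars reach 10.3 to 14.2 FPKM in ICH+P7C3-A20, 14.0 to 18.9 FPKM in ICH and 8.43 to 10.4 FPKM in sham, so that ICH+P7C3-A20 overlaps with both other groups.

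Genes that bind, activate or anchor integrins were followed as an adhesion list of 71 genes, of which 70 were tested (Fgb was not). In ICH against sham, 47 were called higher and 4 lower (Postn, Tln2, Rasgrp2 and Cd47), beside 15.6% and 10.4% of all tested genes, with a median log2 change of 1.05. The lower count was 2 without ICH 1, 2 or 3 in turn, and 0 in the limma fits without quantile normalization. In ICH+P7C3-A20 against ICH, edgeR, DESeq2 and limma called 0 higher, and edgeR called 28 lower, beside 2.69% and 6.05% of all tested genes, with a median of -0.49. The lower count was 16, 11 and 17 without ICH 1, 2 and 3. In ICH+P7C3-A20 against sham, 27 were called higher and 1 lower (Tln2), beside 4.58% and 0.744% of all tested genes, with a median of 0.50. The higher count was 17 without sham 1 and 16 without ICH+P7C3-A20 3, and the lower count was 0 whichever library was left out. By limma the higher count was 9 and 14 with pseudocounts of 1 and 0.1, 13 after quantile normalization and 4 without a filter, and it was 14 from the compared groups alone.

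Of the ligands, 17 of 22 tested were called higher and 1 lower in ICH than in sham, and 10 were called lower in ICH+P7C3-A20 than in ICH. Over all tested genes the shares were 15.6%, 10.4% and 6.05%. Fibronectin (Fn1), the ligand of alpha5 and alpha v pairs, had 9.74, 12.9 and 15.0 FPKM in ICH+P7C3-A20, 28.5, 33.7 and 32.6 FPKM in ICH and 3.6, 4.26 and 2.92 FPKM in sham. No groups overlapped. Its log2 change was 3.07 ± 0.22 in ICH against sham (adjusted p = 8.07e-06) and -1.28 ± 0.21 in ICH+P7C3-A20 against ICH (adjusted p = 0.00764).

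Endothelial ligands of leukocyte integrins were among them. ICAM-1 (Icam1), which binds beta2 pairs, had 0.731, 1.77 and 1.67 FPKM in ICH+P7C3-A20, 4.46, 3.74 and 4.53 FPKM in ICH and 0.239, 0.343 and 0.647 FPKM in sham, with log2 changes of 3.34 ± 0.35 in ICH against sham (adjusted p = 7.79e-05) and -1.57 ± 0.33 in ICH+P7C3-A20 against ICH (adjusted p = 0.0178). The second call did not stand without ICH 1, 2 or 3 (adjusted p = 0.0652, 0.0588 and 0.0590). VCAM-1 (Vcam1), which binds alpha4 beta1, had 3.69, 5.56 and 4.70 FPKM in ICH+P7C3-A20, 7.85, 8.28 and 8.95 FPKM in ICH and 2.66, 3.34 and 3.53 FPKM in sham. Its log2 change was 1.35 ± 0.12 in ICH against sham (adjusted p = 2.58e-05) and -0.80 ± 0.12 in ICH+P7C3-A20 against ICH (adjusted p = 0.00682). For both genes the groups were apart in every library.

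The matricellular ligands osteopontin (Spp1), thrombospondin-1 (Thbs1) and tenascin-C (Tnc) had log2 changes of 5.61 ± 0.59, 3.96 ± 0.40 and 3.50 ± 0.29 in ICH against sham (adjusted p = 1.90e-04, 6.79e-05 and 1.75e-05). In ICH+P7C3-A20 against ICH, Tnc (-1.59 ± 0.27, adjusted p = 0.00828) and Thbs1 (-1.77 ± 0.36, adjusted p = 0.0166) were called lower and Spp1 was not (-1.79 ± 0.50, adjusted p = 0.0593). The Thbs1 call did not stand without ICH 2 (adjusted p = 0.0637) or ICH+P7C3-A20 1 (0.0680). The basement membrane partners of laminin, collagen IV (Col4a1) and perlecan (Hspg2), had log2 changes of 2.10 ± 0.15 and 2.01 ± 0.15 in ICH against sham (adjusted p = 8.07e-06 and 9.15e-06) and of -1.03 ± 0.14 and -0.99 ± 0.14 in ICH+P7C3-A20 against ICH (adjusted p = 0.00640 and 0.00676). Their fold changes in ICH exceeded that of any called laminin chain, the largest being 3.75-fold for Lama4, although a difference between genes was not tested. Of the non-integrin laminin receptors, Bcam was called higher in ICH than in sham (0.71 ± 0.17, adjusted p = 0.0104) and dystroglycan (Dag1) was not (0.26 ± 0.12, adjusted p = 0.158).

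Of 39 activators and adaptors, 23 were called higher and 2 lower in ICH than in sham, and 14 were called lower in ICH+P7C3-A20 than in ICH. The same calls were made for 15.6%, 10.4% and 6.05% of all tested genes. Kindlin-3 (Fermt3), the integrin activator of blood cells and microglia, had 1.32, 2.24 and 1.88 FPKM in ICH+P7C3-A20, 4.91, 4.87 and 5.05 FPKM in ICH and 0.387, 0.433 and 0.678 FPKM in sham. The groups were widely apart, with log2 changes of 3.27 ± 0.20 in ICH against sham (adjusted p = 6.31e-06) and -1.40 ± 0.18 in ICH+P7C3-A20 against ICH (adjusted p = 0.00634). Talin-1 (Tln1), which links beta tails to actin, had changes of 1.53 ± 0.14 (adjusted p = 2.81e-05) and -0.87 ± 0.13 (adjusted p = 0.00731) in the same comparisons. Its relative Tln2, the talin of brain and muscle, was called lower in ICH than in sham (-0.58 ± 0.10, adjusted p = 0.00198).

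The Src-family kinases of myeloid cells that signal from beta2 integrins were also called. Fgr averaged 0.360 FPKM in ICH+P7C3-A20, 1.60 FPKM in ICH and 0.0283 FPKM in sham, where sham 2 was at 0. Of the list's called genes with a mean of at least 1 FPKM in a group, it had the largest change in ICH against sham. That change, which rests on near-absent sham levels, was 5.68 ± 0.66 on the log2 scale (adjusted p = 1.51e-04). Lyn changed by 2.81 ± 0.19 there (adjusted p = 7.67e-06). In ICH+P7C3-A20 against ICH they changed by -2.10 ± 0.54 (adjusted p = 0.0376) and -1.18 ± 0.18 (adjusted p = 0.00731). The adaptor Skap2 changed by 1.48 ± 0.16 in ICH against sham (adjusted p = 8.98e-05) and -1.04 ± 0.16 in ICH+P7C3-A20 against ICH (adjusted p = 0.00698). The Fgr call against ICH did not stand without ICH 1, 2 or 3 (adjusted p = 0.121, 0.120 and 0.0860) or without ICH+P7C3-A20 1, 2 or 3 (0.130, 0.0771 and 0.0646).

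Of 7 membrane partners of integrins, 6 were called higher and Cd47 lower in ICH than in sham, and 4 were called lower in ICH+P7C3-A20 than in ICH. Over all tested genes 15.6%, 10.4% and 6.05% were so called. The urokinase receptor Plaur, which associates with beta2 and beta1 integrins, changed by 3.48 ± 0.45 on the log2 scale in ICH against sham (adjusted p = 3.04e-04) and by -1.54 ± 0.41 in ICH+P7C3-A20 against ICH (adjusted p = 0.0449). Its call against ICH did not stand without ICH 1, 2 or 3 (adjusted p = 0.110, 0.121 and 0.128) or without ICH+P7C3-A20 1, 2 or 3 (0.121, 0.0535 and 0.0707). Cd47, the ligand of SIRP-alpha that also binds alpha v beta3, had a log2 change of -0.44 ± 0.10 in ICH against sham (adjusted p = 0.00769).

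**Figure D4:**
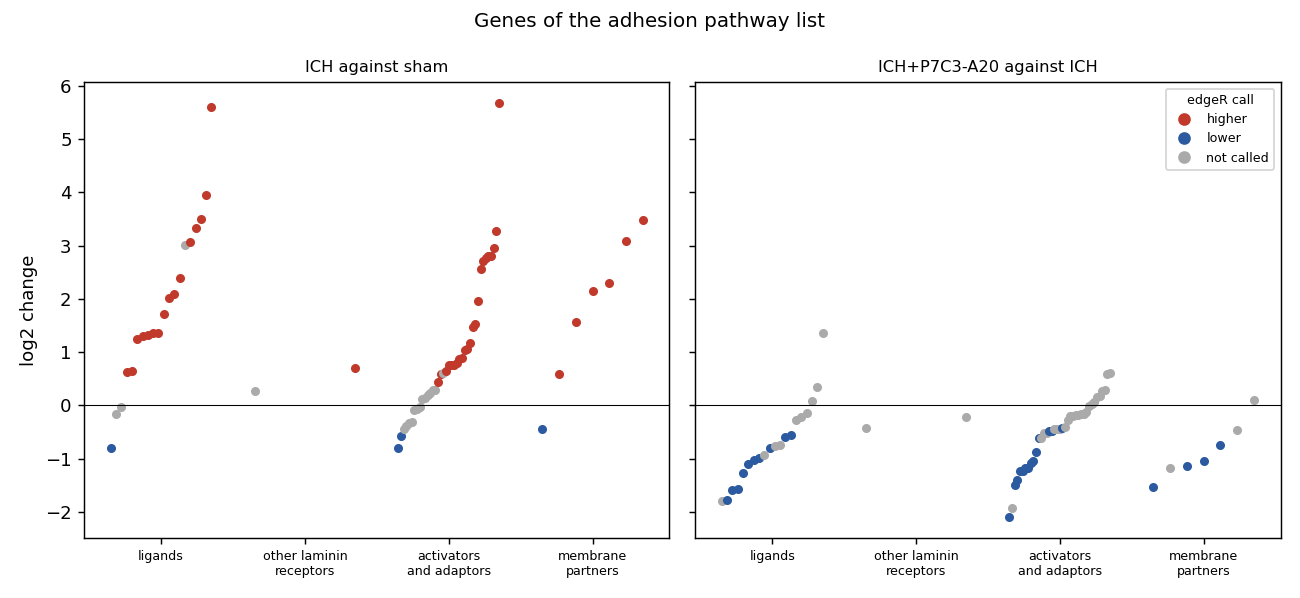
Log2 change (y axis) of 68 tested genes of the adhesion list by role (x axis, ordered by size within a role), coloured by edgeR's call, in ICH against sham (left) and ICH+P7C3-A20 against ICH (right). Fga and Fgg, at 0 in every sham library, are left out with the untested Fgb. On the left most points are red and above 0 among ligands, activators and adaptors, and membrane partners, as is 1 of the 2 other laminin receptors, and on the right no point is red and 28 are blue.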

How the data were processed

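Polyadenylated RNA from 9 mouse brains was made into dUTP-stranded libraries, per the labels' protocols. The submitters' processing notes name cutadapt 1.9, HISAT2 2.0.4 and StringTie 1.3.4d. The sources used here give neither strand setting nor genome build; positions of 34 of the 37 genes are identical to GENCODE M21 (GRCm38), the others being Itgb2, Itga3 and Itgad. The authors deposited FPKM values and whole-number estimated counts per gene and library, per the file headers. FPKM are shown per library and in means ± SD. StringTie can divide reads between overlapping genes, which touches Itga1, Itga9, Itgad and Lamb3.

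Testing used edgeR 4.0.16 under R 4.3.3: filterByExpr with a minimum count of 10 and a minimum total of 15, TMM scaling, and a robust quasi-likelihood fit of the 3 groups with every library in it (6 degrees of freedom left), two-sided, with Benjamini-Hochberg adjustment over 21900 genes. The floor of 3 counts covers counting error only, while the ± errors of log2 changes carry the spread between libraries. The code was tested on simulated counts. Over the comparisons, 2.99% to 4.48% of 1.5-fold, 31.3% to 41.8% of 2-fold and 59.1% to 68.2% of 4-fold changes were recovered. False calls were 4.48% to 6.76%. A gene that was not called may therefore still have changed. Alternatives were DESeq2 1.42.0, limma 3.58.1 on log2 of the deposited FPKM plus 1 or 0.1, other scalings and filters, leaving out each library, a replicate block, and fits to the compared groups only. Values per library are given for members called at least once with a mean of at least 1 FPKM in a group; of the adhesion list, the 8 largest called changes in ICH against sham with a mean of at least 1 FPKM in a group and the 8 smallest adjusted p in ICH+P7C3-A20 against ICH are named, with the few others named by count. Members and lists were chosen with earlier results of these data known. The values of 1 member are not reported here, although it enters the counts. Promoters are RefSeq's (GRCm38.p6). Figures used matplotlib 3.10.9 in Python 3.11.15.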

Additional observations from a re-analysis of the deposited data

How the results depend on the processing

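No called member changed sign under any alternative run. Of 379 alternative values of the members called in ICH against sham, 367 kept their side of the threshold; it was 193 of 247 in ICH+P7C3-A20 against ICH and 140 of 208 in ICH+P7C3-A20 against sham. In ICH against sham, members called lower were 1 by DESeq2 (Lamb3), 2 by limma on quantile-normalized values (Itga9 and Lamb3) and 0 to 1 with a library left out (Itga9 without sham 2); all genes called were 3208 by limma without a filter. Quantile normalization split all calls into 2910 higher and 3271 lower, against 3418 and 2283. In ICH+P7C3-A20 against ICH, genes called were 1914, but 3402 by DESeq2, 1250 by limma with a pseudocount of 0.1, 961 by limma without a filter and 571 to 2695 with a library left out; members lower were 7 by limma without a filter and 6 to 15 with a library left out. In ICH+P7C3-A20 against sham, genes called were 1165, but 2047 by DESeq2, 331 and 527 by limma with pseudocounts of 1 and 0.1, 475 after quantile normalization, 135 by limma without a filter, 435 from the compared groups alone and 538 to 1434 with a library left out. Members higher there were 3 and 5 by limma with pseudocounts of 1 and 0.1, 4 after quantile normalization, 1 by limma without a filter, 6 from the compared groups alone and 6 to 11 with a library left out. Members lower were 0 in the limma fits other than the quantile-normalized one, 0 in the compared groups alone and 0 to 1 with a library left out. Leaving out ICH+P7C3-A20 1 and sham 3 together, chosen after seeing the data, gave 2222 genes called and 0 members lower. The causes were not tested.

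Deviations from the group means gave no sign that shared replicate numbers pair the samples. Their correlations were -0.13 to 0.09 for same-numbered libraries and -0.08 to 0.19 for the others. With 3 libraries per group, such values cannot exclude pairing. With the replicate block, 21 members were higher and 0 lower in ICH against sham (5326 genes called), 12 lower in ICH+P7C3-A20 against ICH (1697), and 9 higher and 1 lower in ICH+P7C3-A20 against sham (944). Of the 13 members called lower against ICH, 10 were shared; Itgam, Itgb8 and Lamb2 (adjusted p = 0.0601, 0.0576 and 0.0623) were not called and Itga5 and Itga7 were added. Itgb3 was not called against sham (0.0558), nor Fgr against ICH (0.0587), and Itga5 was added in ICH against sham.

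Depth limits the rare members: Itgb6, Itgae, Itgad and Itga2 had at most 0.221 FPKM in any library.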
